A study of Mus musculus with 48 samples.

Results

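The genes described here are 31 genes of cholesterol synthesis, sterol control and lipid export, taken by symbol from a deposited table of 24060 genes in mouse striatum. All 31 were in the table and passed the filter on low counts in every comparison. They fall into 18 synthesis enzymes, 6 sterol control genes and 7 export and storage genes. RNA was measured with RiboTag, in which a virus gave striatal astrocytes an HA-tagged ribosomal protein, Rpl22, 3 weeks before RNA was taken. Each replicate had an IP library, the RNA that came down with the tagged ribosomes, and an input library, the RNA of the whole cleared lysate. The 48 libraries (24 IP and 24 input) formed 12 groups of 4 replicates in 3 experiments, each with its own project number in the titles. In the first experiment adult mice of strain C57 had received vehicle or MPTP, a toxin of dopamine neurons, in 4 doses of 20 mg/kg. The labels place both injections in the striatum. In the second, SAPAP3 knockout mice, a model of compulsive grooming that lacks the postsynaptic scaffold gene Dlgap3, were compared with wild-type littermates. In the third, R6/2 mice, which carry a mutant huntingtin transgene and model Huntington's disease, were given control cargo or hM4Di, an engineered receptor that couples to Gi. Both R6/2 groups carry the transgene, so this experiment has no healthy control of its own. The labels do not say whether an agonist of hM4Di was given, or which promoter drove hM4Di or the RiboTag virus. All mice had the tagged ribosomes, and the labels name no age beyond adult.

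Cholesterol does not cross the blood-brain barrier, so the brain makes its own, in adults largely in astrocytes and in oligodendrocytes, which need it for myelin. Synthesis starts from acetyl-CoA and runs through mevalonate, farnesyl diphosphate, squalene and lanosterol to cholesterol. The transcription factor SREBP-2 (Srebf2) raises these enzymes when membranes are short of sterol, and SCAP carries it out of the endoplasmic reticulum. INSIG proteins hold SCAP back when sterol is plentiful, and Insig1 is itself a target of SREBP. Liver X receptors (Nr1h2, Nr1h3) answer to oxysterols and raise the exporters Abca1 and Abcg1, which load cholesterol onto the lipid carrier APOE. Neurons take up such particles and remove excess cholesterol as 24-hydroxycholesterol, made by Cyp46a1, and Soat1 makes cholesteryl esters for storage.

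Promoters are shown for 4 genes: Hmgcs1, which makes the substrate of mevalonate synthesis, Insig1, Hsd17b7 and Msmo1. They are shown because the last 3 were among the genes that rose with hM4Di, and Hmgcs1 holds the sterol element. Each window runs from 250 bases before to 50 bases after the start of a RefSeq transcript on GRCm38.p6. It is read 5′ to 3′ on the strand of the gene. Capitals mark CCAAT boxes (CCAAT, or ATTGG for a box on the other strand), the E-box CACGTG, and the sterol element TCACNCCAC.
Hmgcs1, chr13:119690101-119690400, plus strand: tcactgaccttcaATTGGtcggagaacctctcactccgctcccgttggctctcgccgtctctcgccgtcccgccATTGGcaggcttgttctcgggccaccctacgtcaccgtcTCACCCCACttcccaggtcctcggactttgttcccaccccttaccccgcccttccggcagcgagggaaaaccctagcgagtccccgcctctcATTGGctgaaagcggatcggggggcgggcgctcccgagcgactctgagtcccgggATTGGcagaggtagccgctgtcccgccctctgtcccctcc
Insig1, chr5:28071162-28071461, plus strand: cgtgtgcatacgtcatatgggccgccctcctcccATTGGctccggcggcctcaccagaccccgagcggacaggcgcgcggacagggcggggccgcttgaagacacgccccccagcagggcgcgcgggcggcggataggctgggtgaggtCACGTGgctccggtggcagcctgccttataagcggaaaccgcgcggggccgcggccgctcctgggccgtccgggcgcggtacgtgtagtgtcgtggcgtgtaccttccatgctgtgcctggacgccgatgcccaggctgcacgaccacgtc
Hsd17b7, chr1:169969156-169969455, minus strand: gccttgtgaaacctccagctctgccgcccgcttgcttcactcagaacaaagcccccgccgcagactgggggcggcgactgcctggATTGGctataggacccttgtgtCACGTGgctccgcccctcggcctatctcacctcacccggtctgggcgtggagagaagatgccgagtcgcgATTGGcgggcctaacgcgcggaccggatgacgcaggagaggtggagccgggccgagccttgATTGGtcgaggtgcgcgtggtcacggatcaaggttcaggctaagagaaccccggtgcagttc
Msmo1, chr8:64733529-64733828, minus strand: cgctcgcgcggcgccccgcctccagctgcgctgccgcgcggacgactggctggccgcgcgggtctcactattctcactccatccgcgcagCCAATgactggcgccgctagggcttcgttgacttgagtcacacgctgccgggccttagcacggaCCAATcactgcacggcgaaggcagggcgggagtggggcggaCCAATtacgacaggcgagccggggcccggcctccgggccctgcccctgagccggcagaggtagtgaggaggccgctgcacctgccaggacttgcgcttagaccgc
RefSeq windows were at hand for 26 of the 31 genes, all but Fdps, Fdft1, Sqle, Stard4 and Abcg1. A gene counted as holding an element if any of its windows did. There were 37 windows for the 26 genes and 32851 for 27025 genes, which were not limited to genes tested here. A CCAAT box on either strand stood in the windows of 20 of the 26 genes (76.9%), against 41.1% of 27025 genes with a window. By role these were 14 of 15 synthesis enzymes, 4 of 5 sterol control genes and 2 of 6 export and storage genes. The E-box stood in 6 of the 26 (23.1%), Hsd17b7, Sc5d, Dhcr7, Insig1, Scap and Abca1, against 8.09% of all genes. The sterol element TCACNCCAC stood in the window of Hmgcs1 alone among the 26, against 1.44% of all genes. A direct repeat of 2 copies of AGGTCA spaced by 4 bases, a form bound by liver X receptors, stood in none of the 26 and in 0.0148% of all genes. These are matches of letters on both strands and not measured binding sites. Only exact matches were counted, so variant forms of an element would not be found. The direct repeat is so rare over all genes that its absence from 26 genes tells nothing about them. Acat2 has a close copy, Acat3, and Nr1h2 a pseudogene in the mouse annotation, so reads of these 2 genes may be shared and their values are less certain.

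Library totals ran from 34316801 to 61456591 counted reads in IP and from 21901847 to 38983930 in input. At this depth the genes held between 54 reads (Idi1) and 390178 reads (Apoe) in a library. The labels were checked on 3 genes. Reads assigned to Chrm4, whose human counterpart hM4Di was built from, were 555 to 860 CPM (counts scaled to library size) in hM4Di IP libraries and 37.5 to 65.2 in the R6/2 control IP libraries. Dlgap3 lay at 56.6 to 97.8 CPM in knockout IP libraries and at 173 to 229 in wild-type ones. Th, the tyrosine hydroxylase gene of dopamine neurons, did not separate MPTP from vehicle: it lay at 6.28 to 7.28 against 5.80 to 7.51 CPM in input and at 17.4 to 20.8 against 19.8 to 22.9 in IP libraries. The cell bodies of those neurons lie outside the striatum, so this gene is no direct check of the MPTP label. Astrocyte markers were over 2-fold higher in IP than in input for 12 of 12 genes in each experiment, with median log2 differences of 2.54, 2.45 and 2.48. Medians were -4.95, -3.85 and -5.04 for microglia markers, -2.83, -2.96 and -3.48 for endothelial and mural markers, and -1.05, -0.64 and -0.91 for medium spiny neuron markers. Oligodendrocyte markers had medians of 0.10, 0.79 and -0.08, and each gene of these 5 lists that was found by symbol passed the filter on low counts. Both oligodendrocytes and astrocytes make cholesterol, so oligodendrocyte marker values are given with each comparison of conditions within a fraction. Of the IP libraries, hM4Di replicate 3 stood highest in its group for 17 of 18 synthesis enzymes, MPTP replicate 1 for 18 of 18, and wild-type replicate 1 lowest for 16 of 18. Wild-type replicate 2 was the highest of its group for 16 and R6/2 control replicate 3 for 15 of 18. For Th, too, hM4Di replicate 3 lay above replicates 1, 2 and 4 of its group in both fractions. Its Th level was 22.6 CPM in IP against 8.45, 8.33 and 9.25, and 7.33 in input against 2.81, 3.28 and 3.93.

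Levels between genes were compared as FPKM (fragments scaled to gene length and library size). In vehicle IP libraries Apoe stood far above all others, at 5146 ± 345 FPKM (SD, n = 4 here and throughout). Hmgcs1 followed at 146 ± 15.2 FPKM and Msmo1, a demethylase of the late pathway, at 108 ± 5.57. Srebf1, the relative of Srebf2 best known for fatty acid genes, was at 65.3 ± 8.23 FPKM. Next came Sc5d at 51.7 ± 2.37, Cyp46a1 at 50.4 ± 2.21 and Insig1 at 50.3 ± 2.51, 3 levels that differed by less than their spread. The lowest were Nr1h3 at 2.40 ± 0.156, Idi1 (isopentenyl diphosphate isomerase) at 3.33 ± 0.415 and Stard4, a sterol carrier, at 3.95 ± 0.473 FPKM. In vehicle input libraries Apoe was again first at 1227 ± 35.1 FPKM, but Cyp46a1 was second at 96.6 ± 3.96, above Hmgcs1 at 58.5 ± 3.90. In the R6/2 control IP libraries the order differed: Apoe at 4600.0 ± 167 FPKM was followed by Srebf1 at 99.97 ± 4.42, Hmgcs1 at 72.7 ± 16.1 and Abca1 at 62.5 ± 4.01. Msmo1 had there 43.1 ± 7.19 FPKM and Insig1 16.6 ± 4.26.

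**Figure D1:**
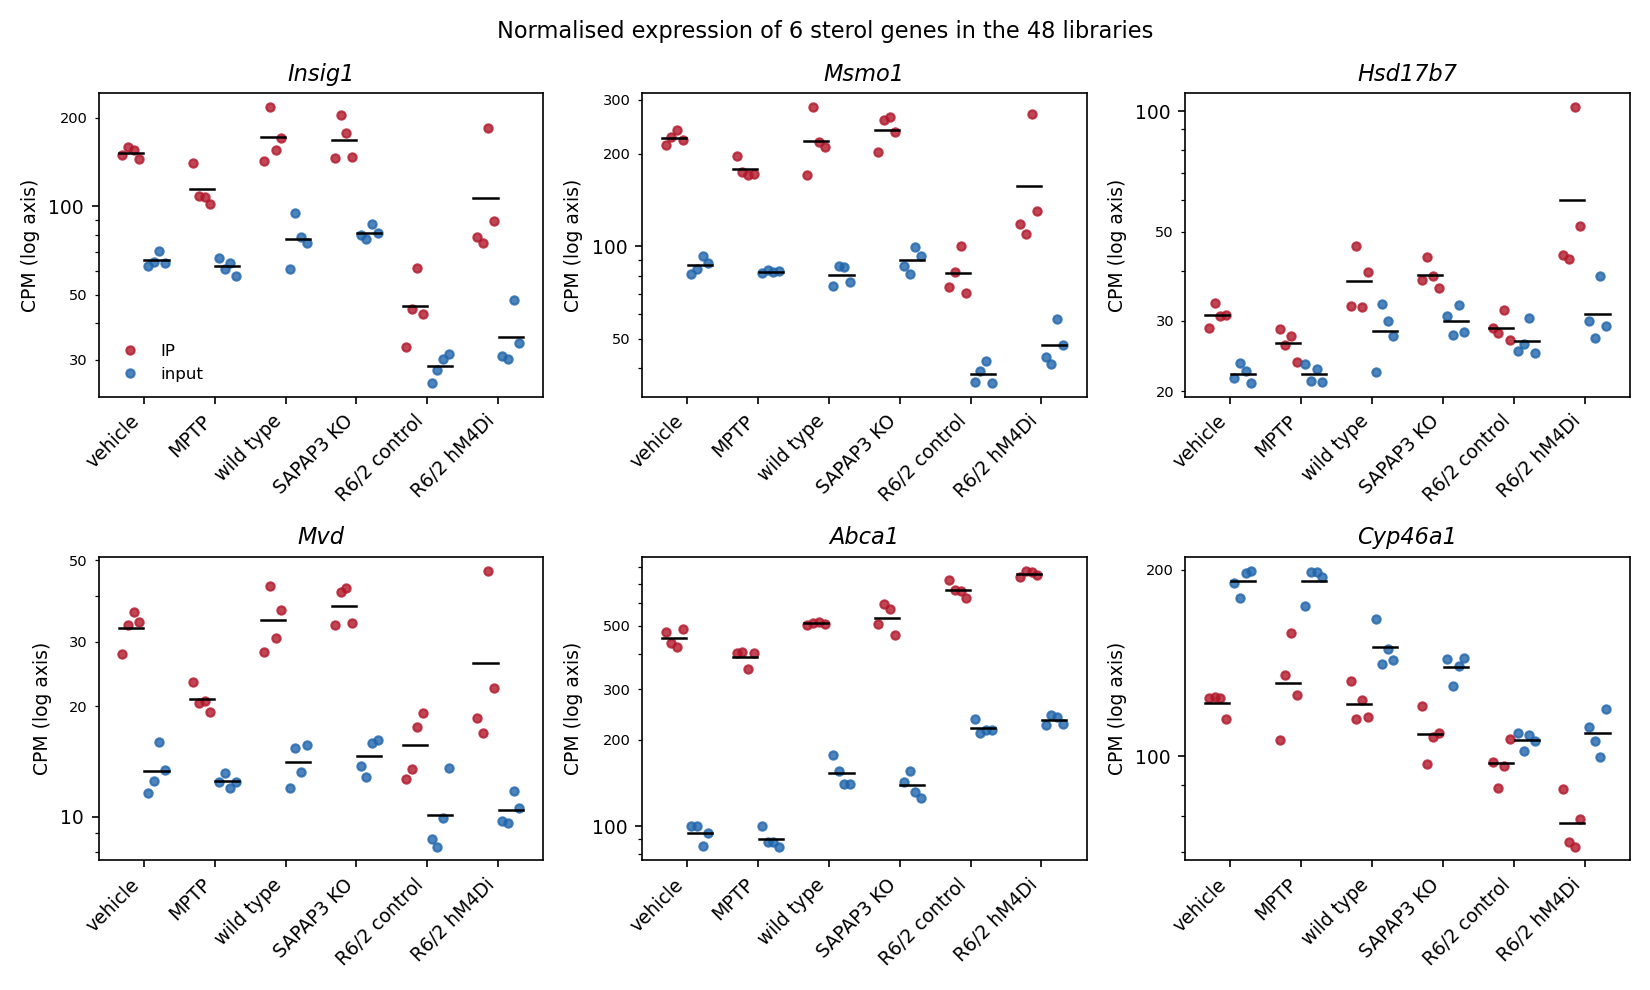
Level of 6 genes in all 48 libraries, in CPM on a log axis, by condition, with IP libraries in red, input libraries in blue and a black line at each group mean. Insig1 and Msmo1 are low in R6/2 control IP libraries (Insig1 33.2, 44.7, 61.7 and 43.1 CPM) and higher in the hM4Di libraries, of which replicate 3 is the top point, while Abca1 is highest in the R6/2 libraries.

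Most of the genes were higher in the RNA that came down with the tagged ribosomes than in the whole lysate in each experiment. By edgeR's quasi-likelihood test over all 16 libraries of an experiment, with Benjamini-Hochberg adjustment over all genes tested (adjusted p under 0.05), 26 of 31 were higher in IP in the MPTP experiment, 28 in that on SAPAP3 and 26 in that on R6/2. Of all genes tested 40.7%, 40.3% and 39.3% were higher and 42.9%, 40.0% and 41.1% lower, and of the 31 genes 2 were lower in each experiment. More than 2-fold higher were 13, 14 and 10 of the 31, where the share of all genes was 12.5%, 11.9% and 11.3%. None was over 2-fold lower, against 14.0%, 13.0% and 12.3% of all genes. The 18 synthesis enzymes had median log2 differences of 0.98, 0.99 and 0.88, with 17, 18 and 17 called higher. Mean oligodendrocyte marker sums were 7575, 10193 and 3608.5 CPM in vehicle, wild-type and R6/2 control IP libraries, and 7591, 6366 and 5014 in input. The part of these cells in the IP differences was not tested. In bulk RNA, more cells of a type and more RNA per cell cannot be told apart, in these and all further results.

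Among the synthesis enzymes, Hmgcs1 was higher in IP by 1.48 ± 0.068, 1.21 ± 0.11 and 1.40 ± 0.14 (log2, with standard error, in the order MPTP, SAPAP3, R6/2). Its vehicle libraries held 522, 566, 662 and 630.1 CPM in IP and 182, 194, 214 and 195 in input, replicates 1 to 4 in order, so the fractions did not overlap. Msmo1 was higher by 1.19 ± 0.049, 1.43 ± 0.086 and 1.40 ± 0.18, and Cyp51, the lanosterol demethylase, by 1.30 ± 0.062, 1.32 ± 0.078 and 1.15 ± 0.17. Sqle (squalene epoxidase), often called a second control point of the pathway, was higher by 1.15 ± 0.06, 1.00 ± 0.10 and 0.99 ± 0.12. Its vehicle libraries held 92.9, 88.02, 102 and 101 CPM in IP and 37.5, 38.2, 39.2 and 39.4 in input. The enrichment was small for Hsd17b7, a sterol ketoreductase, at 0.31 ± 0.054, 0.40 ± 0.084 and 0.53 ± 0.18. Ebp, the sterol isomerase, was not called in the MPTP experiment (0.03 ± 0.06) and was higher by 0.52 ± 0.064 and 0.19 ± 0.062 in the others. On the log2(FPKM + 1) scale its difference was -0.18 in the MPTP and -0.044 in the R6/2 experiment. Tm7sf2, a sterol reductase, was higher by 0.93 ± 0.064 and 0.87 ± 0.091 in the first experiments but not called in the R6/2 one, at 0.11 ± 0.072.

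Of the sterol control genes, Srebf1 had the largest IP difference, 2.03 ± 0.06, 2.17 ± 0.068 and 2.04 ± 0.047, with 369.7, 337, 284 and 292 CPM in vehicle IP libraries and 81.5, 75.4, 64.3 and 68.05 in input. Srebf2 was higher by 0.80 ± 0.049, 0.45 ± 0.074 and 0.84 ± 0.041. Its vehicle libraries held 176, 160.3, 171 and 201 CPM in IP and 97.6, 91.4, 100.0 and 101 in input. Insig1 was higher by 0.99 ± 0.07, 1.09 ± 0.10 and 1.13 ± 0.21, and held 149, 159, 155 and 144 CPM in vehicle IP and 62.6, 64.7, 70.6 and 63.9 in vehicle input libraries. Its relative Insig2 was slightly lower in IP in each experiment, at -0.12 ± 0.037, -0.12 ± 0.037 and -0.10 ± 0.031. So the 2 INSIG genes lay on opposite sides of the input, each passing the test in each experiment. Stard4 was higher in the MPTP experiment (0.46 ± 0.079) and was not called in the SAPAP3 (-0.05 ± 0.089) and R6/2 (0.27 ± 0.20) experiments.

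Export genes split more widely. Apoe was higher in IP by 2.23 ± 0.058, 2.38 ± 0.079 and 2.63 ± 0.054, with 8019, 7319, 7244 and 6826 CPM in vehicle IP and 1515, 1409.8, 1453 and 1382 in vehicle input libraries. Abca1 was higher by 2.13 ± 0.055, 1.83 ± 0.069 and 1.64 ± 0.036, with 477, 434, 420.0 and 486 CPM in vehicle IP and 99.8, 100.2, 85.1 and 94.5 in input. Soat1 was higher by 1.44 ± 0.041, 1.37 ± 0.059 and 1.74 ± 0.05. The related exporter Abcg1 differed little, by 0.02 ± 0.041, 0.18 ± 0.049 and 0.17 ± 0.038, and the first was not called. Its direction flipped in the MPTP experiment under upper-quartile scaling (-0.11) and in all experiments on log2(FPKM + 1) (-0.20, -0.045 and -0.066). Cyp46a1, a gene of neurons, was the 1 export and storage gene called lower in IP, at -0.66 ± 0.059, -0.34 ± 0.05 and -0.31 ± 0.065, with 124, 125, 124 and 115 CPM in vehicle IP and 191, 180.3, 198 and 199 in input. Of the related list of 11 fatty acid synthesis genes, 10, 9 and 9 were over 2-fold higher in IP, with medians of 1.67, 1.47 and 1.42, led by Fads2 at 2.25 ± 0.042, 2.18 ± 0.073 and 2.33 ± 0.049. Of 22 genes of sterol uptake, transport and processing, 3, 3 and 1 were over 2-fold higher, beside 12.5%, 11.9% and 11.3% of all genes. The lipoprotein receptor Lrp1 was at 1.52 ± 0.067, 1.00 ± 0.066 and 1.03 ± 0.039.

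**Figure D2:**
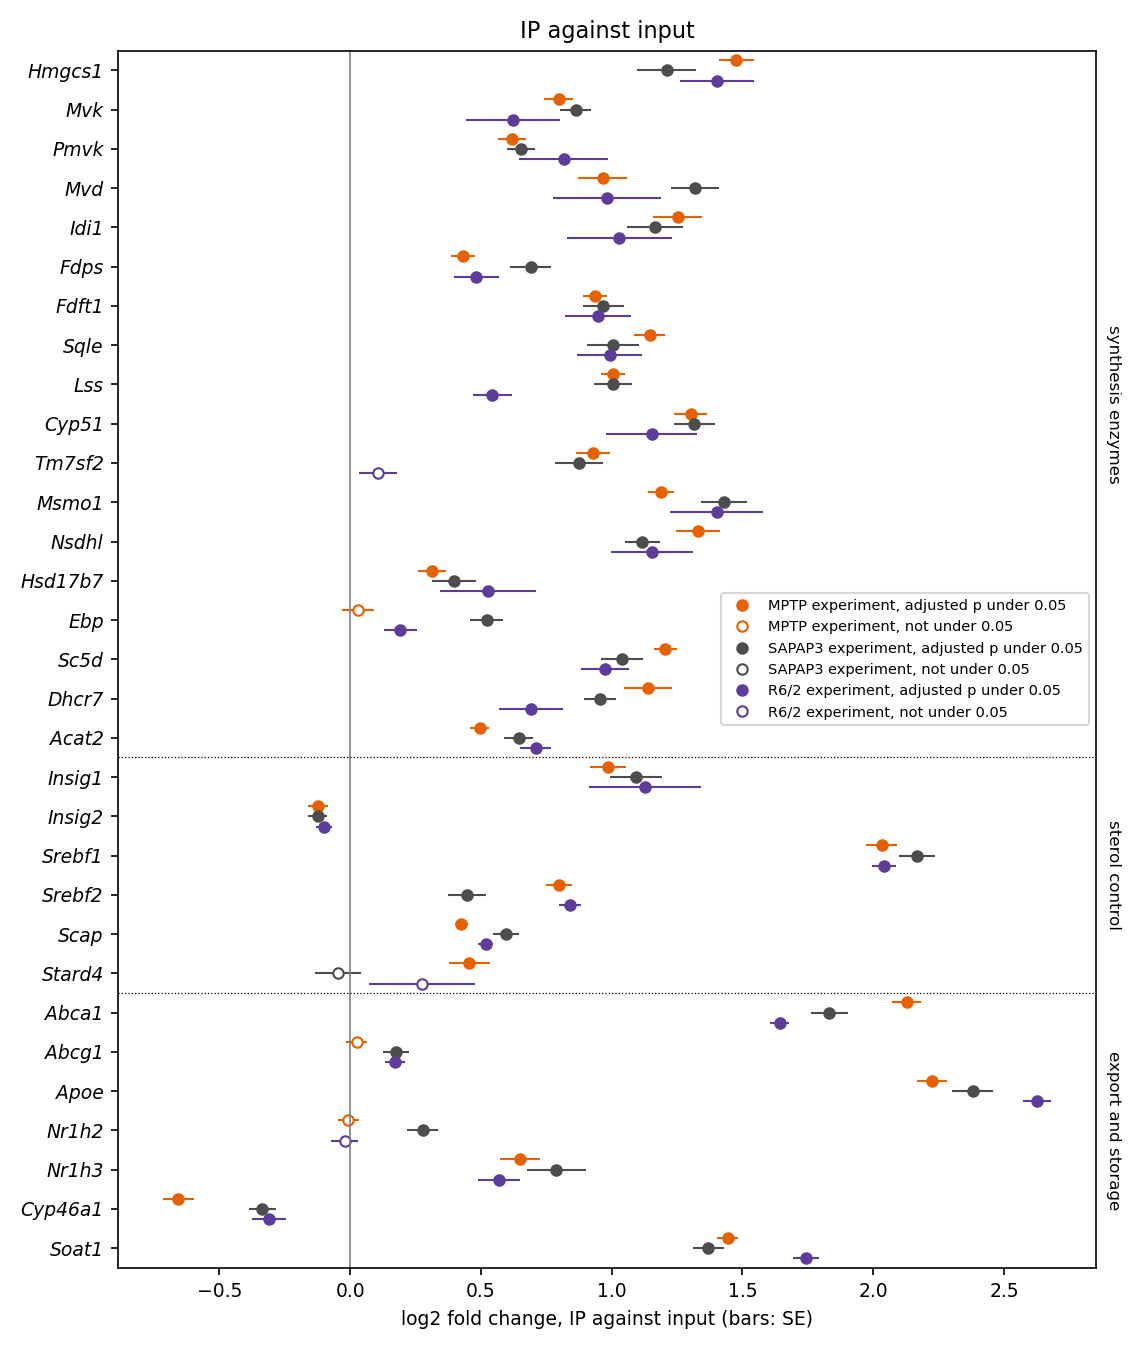
Log2 difference of IP against input for the 31 genes in each of 3 experiments, by role, with bars of 1 standard error from edgeR and filled points where the adjusted p was under 0.05. Apoe, Abca1 and Srebf1 lie farthest to the right (Apoe 2.23 ± 0.058 in the MPTP experiment), and Cyp46a1 and Insig2 to the left of 0.

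Part of the cholesterol synthesis pathway rose in the IP libraries of R6/2 mice with hM4Di against control cargo. In IP libraries 9 of the 31 genes rose and 1 fell, where 9.06% of 15159 genes rose and 5.63% fell (edgeR, adjusted p under 0.05). The 4 synthesis enzymes that rose were Hsd17b7, Pmvk, Cyp51 and Msmo1. The other 14 of the 18 had positive log2 differences of 0.17 ± 0.10 (Acat2) to 0.97 ± 0.31 (Idi1) and did not pass. The median over the 18 was 0.54 where that over all genes was 0.0052. In sterol control Insig1, Srebf1 and Scap rose, and in export and storage Abca1 and Nr1h2 rose and Cyp46a1 fell. On the scaling of this comparison, 15 of the 31 genes were higher in each hM4Di library than in any control library and 1 was lower, with shares of all genes of 12.8% and 10.1%.

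Insig1 held 33.2, 44.7, 61.7 and 43.1 CPM in control IP libraries and 78.3, 74.8, 185 and 89.4 in hM4Di IP libraries. The groups did not overlap, the hM4Di libraries were all above the controls, and replicate 3 was the highest by far. The log2 difference was 1.25 ± 0.31 (adjusted p = 0.0303). Hsd17b7 had 28.7, 27.9, 31.8 and 26.9 CPM in the controls and 43.7, 42.7, 102 and 51.6 with hM4Di, a rise of 1.08 ± 0.27 (adjusted p = 0.0296). Its controls lay within a narrow range that no hM4Di library reached. Pmvk, the kinase that adds the second phosphate to mevalonate, had 30.9, 30.3, 33.4 and 29.8 CPM against 47.4, 41.3, 104 and 57.3, a rise of 1.03 ± 0.26 (adjusted p = 0.0317). Cyp51 had 50.7, 55.00, 72.2 and 56.3 CPM against 79.5, 82.5, 186 and 97.7, a rise of 0.95 ± 0.27 (adjusted p = 0.0444). Msmo1, which acts after Cyp51 in the pathway, had 73.7, 82.3, 101 and 70.2 CPM against 119, 110.1, 269.7 and 130.4, a rise of 0.97 ± 0.28 (adjusted p = 0.0491). In all 5 genes the same library, hM4Di replicate 3, was the highest and control replicate 3 the highest of the controls.

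Hmgcs1 overlapped between the groups, with 253, 249, 358 and 221 CPM against 304, 306, 593 and 347 and a difference of 0.54 ± 0.23 (adjusted p = 0.15). Sqle did not overlap, with 44.6, 47.3, 49.7 and 40.4 CPM against 59.5, 56.4, 103 and 59.2, but missed the threshold at 0.63 ± 0.19 (adjusted p = 0.0542). Mvk, the kinase before Pmvk, was at 19.3, 16.5, 20.1 and 16.3 against 24.8, 22.5, 57.96 and 26.8 CPM (0.89 ± 0.29, adjusted p = 0.0655). These show the same layout, replicate 3 far above the other 3 hM4Di libraries. For Lss, which closes the sterol rings, only replicate 3 stood above the controls, with 42.5, 42.5, 47.5 and 41.5 CPM against 42.4, 41.96, 64.2 and 45.3.

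Of the sterol control genes, Srebf1 and Scap rose by less than Insig1 and with less spread. Srebf1 held 436, 469, 448 and 435 CPM in controls and 515, 551, 538 and 519 with hM4Di. The groups were apart, and replicate 3 was not the highest. The rise was 0.27 ± 0.043 (adjusted p = 0.00745). Scap had 173, 169, 171 and 175 CPM against 190.3, 193, 184 and 181, a rise of 0.14 ± 0.035 (adjusted p = 0.0307). Srebf2, at 144, 144, 154 and 148 CPM against 158, 169.7, 178 and 152, had a difference of 0.18 ± 0.056 that missed the threshold (adjusted p = 0.0653). Its lowest hM4Di library lay below the highest control on the scaling over all libraries, and above it on the scaling of the comparison. Insig2 had 0.02 ± 0.046 (adjusted p = 0.795) and Stard4 0.85 ± 0.34 (adjusted p = 0.119).

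Abca1 had 719, 664, 662 and 624.7 CPM in controls and 741, 778, 769.7 and 751 with hM4Di, a rise of 0.21 ± 0.048 (adjusted p = 0.0239). Nr1h2, the liver X receptor beta, had 29.1, 32.5, 31.3 and 30.1 CPM against 35.5, 38.2, 34.3 and 34.6, a rise of 0.23 ± 0.055 (adjusted p = 0.026). Cyp46a1 fell, from 97.8, 88.8, 96.6 and 107 CPM to 88.6, 72.7, 71.5 and 79.3 (-0.30 ± 0.076, adjusted p = 0.0316). In each of these 3 genes the groups were apart, for Cyp46a1 only just, with hM4Di replicate 1 beside control replicate 2. Apoe, with 5676, 6099, 6143 and 6033 CPM against 5859, 5817, 5988 and 4771, did not pass (-0.08 ± 0.074, adjusted p = 0.538) and its groups overlapped. Soat1 (0.18 ± 0.067, adjusted p = 0.0924), Nr1h3 (0.25 ± 0.093, adjusted p = 0.0972) and Abcg1 (0.02 ± 0.055, adjusted p = 0.875) did not pass either.

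**Figure D3:**
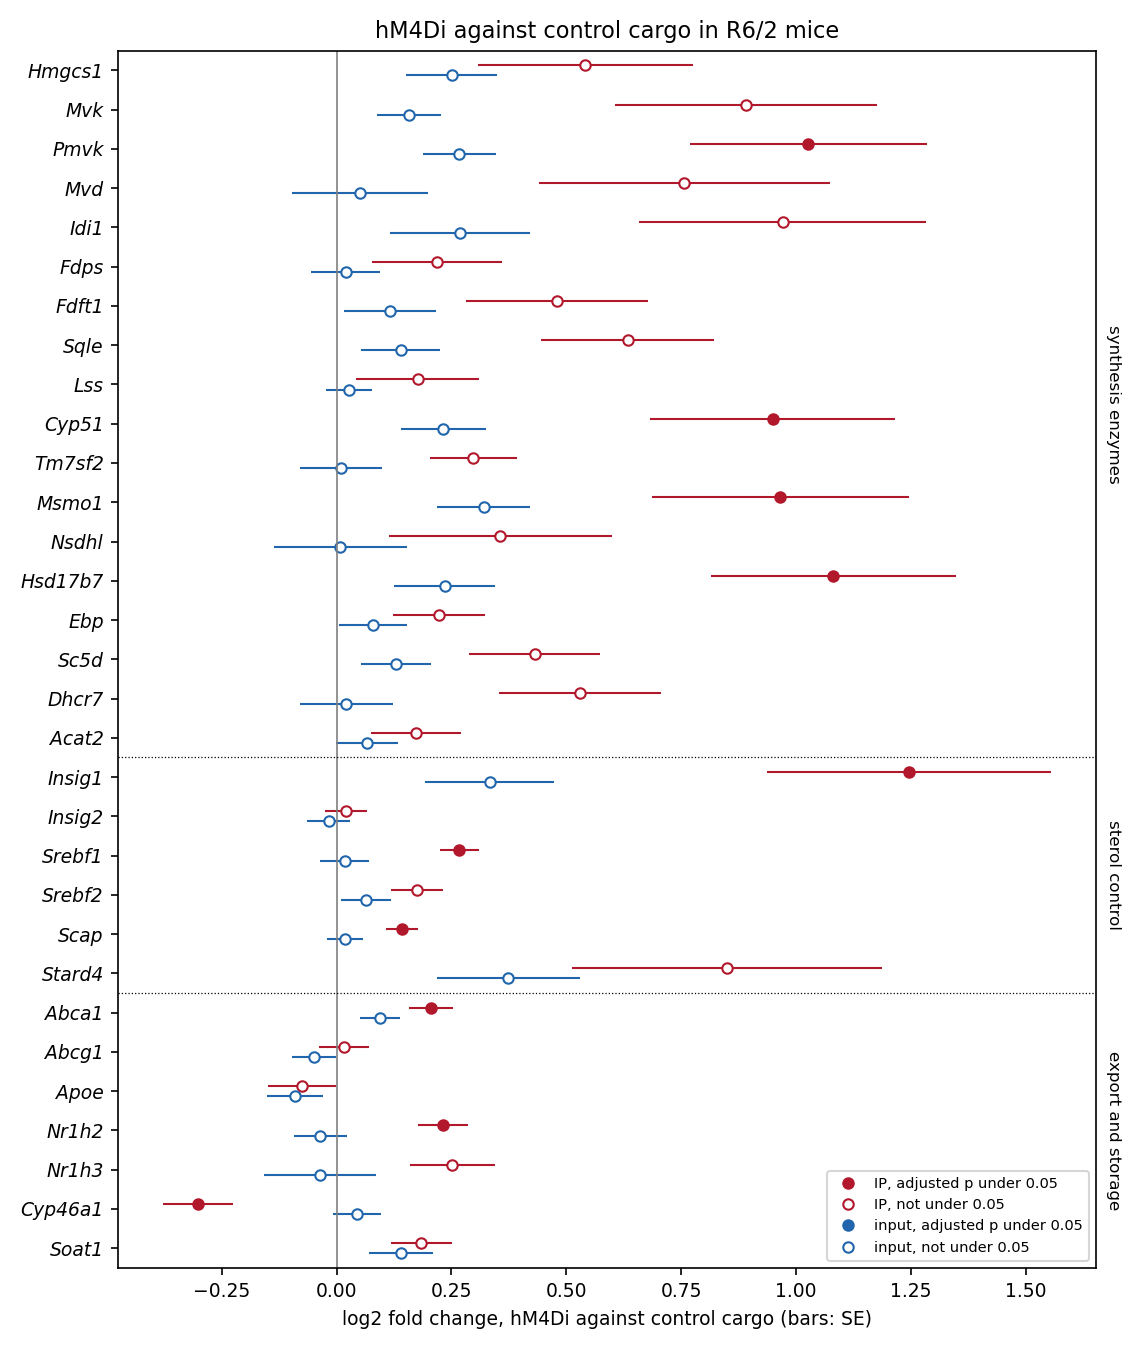
Log2 difference of hM4Di against control cargo in R6/2 mice for the 31 genes, in IP and in input libraries, with bars of 1 standard error from edgeR and filled points where the adjusted p was under 0.05. In IP the 18 synthesis enzymes lie to the right of 0 with a median of 0.54 and 4 are filled, and in input no point is filled.

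Without hM4Di replicate 3 the synthesis differences were smaller. Over all genes 1497 of 15229 were then called, 6.80% higher and 3.03% lower. The synthesis median was 0.31, still positive for 18 of 18, and 7 synthesis enzymes rose: Hsd17b7 (0.69 ± 0.082), Pmvk (0.66 ± 0.10), Cyp51 (0.58 ± 0.12), Msmo1 (0.57 ± 0.12), Mvk (0.47 ± 0.092), Sqle (0.37 ± 0.067) and Dhcr7 (0.30 ± 0.079). Insig1 rose by 0.84 ± 0.18 (adjusted p = 0.0267), and Srebf1 and Nr1h2 rose too. Abca1 (adjusted p = 0.0541), Scap (0.0554) and Cyp46a1 (0.0687) no longer passed in edgeR. So 10 genes were called with and without this library, and 7 of them were shared. Leaving out control replicate 1, 2, 3 or 4 left 2, 3, 2 and 2 of the 31 called, none of them a synthesis enzyme. Leaving out hM4Di replicate 2 left 4. Cyp46a1 was called only in the fits without control replicate 2 or hM4Di replicate 1. Over all genes, 892, 1935, 1547 and 1409 were called without control replicate 1, 2, 3 or 4 and 1084 without hM4Di replicate 2. Srebf1 was called in each of these 8 fits. DESeq2 called 16 of the 31 higher and 1 lower of 3474 genes, and edgeR over all 16 libraries of the experiment 17 and 1 of 3636.

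**Figure D4:**
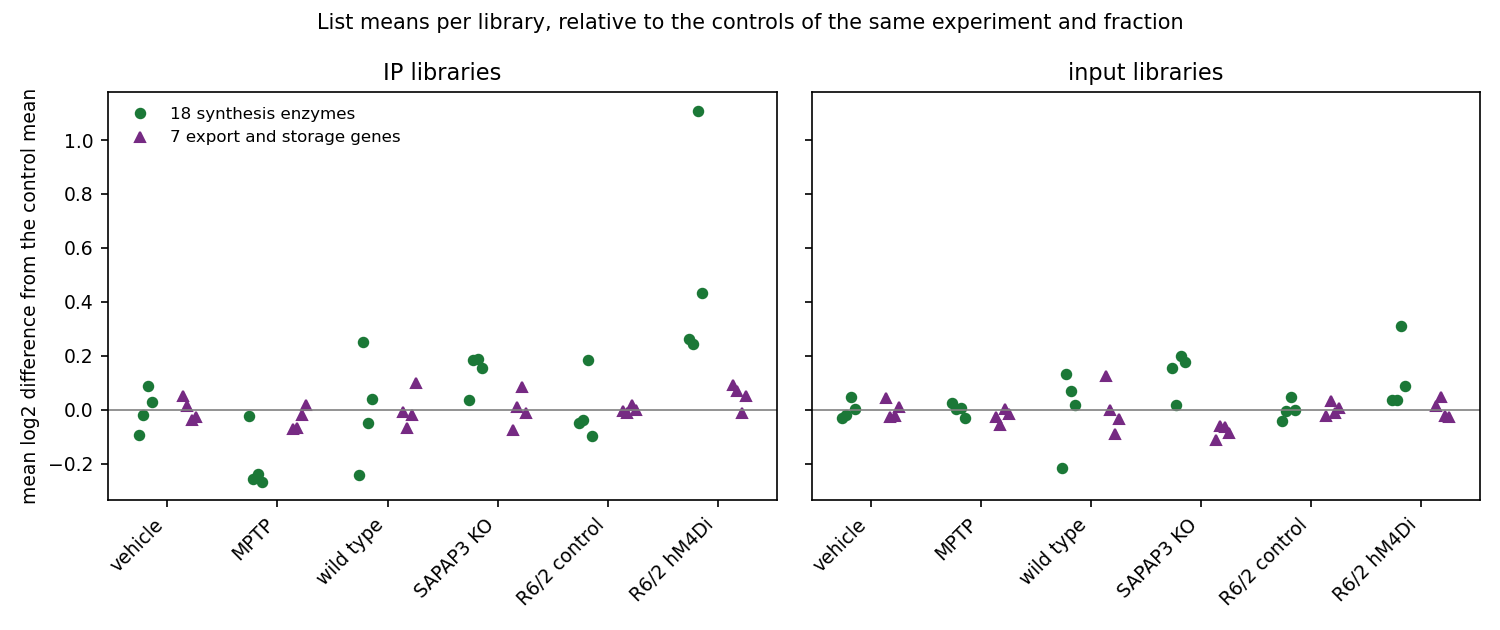
Mean log2 difference from the control mean for 18 synthesis enzymes (circles) and 7 export and storage genes (triangles) in each library, IP and input, by condition. Replicate 3 of hM4Di lies at 1.11 for synthesis in IP and at 0.31 in input, with the other hM4Di IP libraries at 0.24 to 0.43, and MPTP IP replicate 1 (-0.02) lies apart from the other 3 (-0.24 to -0.27).

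Markers of other cell types moved with the same contrast. In IP, 10 of 10 oligodendrocyte markers rose with hM4Di (median 0.84), among them Mobp (0.81 ± 0.10) and Cnp (0.64 ± 0.10), and their summed level went from 3608 ± 491 CPM (range 2950.4 to 4138) to 6225 ± 972 (range 5268 to 7549). In input it was 5014 ± 403 and 4973 ± 399 CPM. Of 9 medium spiny neuron markers 6 fell in IP (median -0.51), with sums of 1588 to 2358 CPM in controls and 1310.0 to 1362 with hM4Di. Of 6 pan-neuronal markers Map2 (-0.23 ± 0.049, adjusted p = 0.0187, edgeR) and Syt1 (-0.23 ± 0.054, 0.0261) fell. The others had differences of -0.36 (Rbfox3) to -0.03 (Tubb3) and did not pass. Of 7 oligodendrocyte precursor markers 1 rose and 1 fell, and no microglia or endothelial marker passed. The astrocyte sum was 22259 ± 1364 CPM in controls and 18513 ± 585 with hM4Di. Of the 12 astrocyte markers 1 fell, the glutamate transporter Slc1a2 (-0.44 ± 0.049), and 1 rose, Gfap (0.77 ± 0.17), both named after their values were seen. The highest oligodendrocyte sum was in hM4Di replicate 2 (7549 CPM), not in replicate 3 (5821 CPM), where the synthesis enzymes were highest. The part of these cells in the rise was not tested.

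Calls in related lists are to be read beside the 9.06% of all genes that rose and the 5.63% that fell. Of 11 fatty acid synthesis genes 1 rose, near the share of all genes. It was the elongase Elovl6 (0.24 ± 0.07, adjusted p = 0.049), and the desaturase Scd1 just missed the threshold (0.41 ± 0.12, adjusted p = 0.0513). The median of the 11 genes was 0.13. Of 22 genes of sterol uptake, transport and processing 4 rose and 2 fell. The lipocalin Apod rose by 1.43 ± 0.28 (adjusted p = 0.0141), the sterol transfer gene Gramd1c by 0.80 ± 0.10 (0.00324), and the lysosomal sterol carrier Npc2 by 0.30 ± 0.062 (0.0165). Gramd1b fell (-0.18 ± 0.039). The remaining calls, named after their values were seen, were a rise of Abca2 (0.32 ± 0.076) and a fall of Lrp1 (-0.14 ± 0.038). None of 9 genes of the isoprenoid branch, which leaves the pathway at farnesyl diphosphate, passed.

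In the input libraries of the same mice none of the 31 genes was called, where 3 of 15168 genes were (0.0198%, edgeR). At an unadjusted p under 0.05, 7 of the 31 were higher and none lower, of 1163 genes, and DESeq2 called 53 genes. The 18 synthesis differences were all positive with a median of 0.12, and without replicate 3, which was highest for 17 of 18, they were positive in 12 with a median of 0.054. Insig1 held 25.04, 27.8, 30.2 and 31.5 CPM in control and 30.9, 30.3, 47.9 and 34.2 in hM4Di input (0.33 ± 0.14, adjusted p = 0.622). Pmvk had the smallest p of the enzymes, with 24.3, 21.1, 22.7 and 23.3 CPM against 27.8, 24.2, 31.1 and 26.3 (0.27 ± 0.079, adjusted p = 0.484). Msmo1 followed, at 36.2, 39.3, 42.4 and 35.8 against 43.7, 41.4, 58.1 and 47.6 (0.32 ± 0.10, adjusted p = 0.504). Replicate 3 was the highest hM4Di input library for all 3 genes, and the groups met or overlapped. Stard4 had 7.81, 9.46, 8.66 and 6.77 CPM against 9.74, 7.84, 12.9 and 11.7 (0.37 ± 0.16, adjusted p = 0.622) with overlapping groups. Hmgcs1 was at 106, 106, 129 and 107 against 117, 123, 161 and 129.6 CPM. Sqle was at 26.8, 28.1, 27.7 and 25.2 against 27.6, 26.3, 34.96 and 29.2. Srebf2 was at 81.3, 81.1, 81.8 and 95.9 against 88.9, 87.04, 89.9 and 87.5. These 3 genes overlapped between the groups, with control replicate 4 the highest library for Srebf2.

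In the same input libraries Hsd17b7 was at 25.2, 26.2, 30.5 and 24.8 CPM in controls and 29.9, 27.2, 38.7 and 29.04 with hM4Di. Cyp51 was at 29.5, 32.7, 36.9 and 34.99 against 33.4, 38.4, 44.6 and 40.2. For both enzymes replicate 3 again had the highest hM4Di value. Srebf1 was at 119, 124, 108 and 119 against 111, 125, 116 and 122 CPM (0.02 ± 0.053), Scap at 124, 127, 125 and 122 against 132, 120.2, 119.7 and 129 (0.02 ± 0.039), and Nr1h2 at 32.2, 37.04, 32.8 and 33.9 against 34.9, 33.4, 31.6 and 32.05 (-0.04 ± 0.058). These 3 genes overlapped between the input groups. Of the export genes Abca1 had 237, 212, 217 and 216 CPM against 225, 244, 239.8 and 227 (0.09 ± 0.043) and Soat1 43.3, 43.7, 43.2 and 45.7 against 43.2, 53.7, 51.04 and 44.9 (0.14 ± 0.069). Apoe, at 922, 1044, 898 and 1001 against 922, 909, 962 and 819, and Cyp46a1, at 109, 102, 108 and 106 against 112, 106, 99.6 and 119, overlapped between the groups.

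Whether the hM4Di difference was larger in IP than in input was tested as an interaction. Without the animal in the model 492 of 15880 genes passed (3.1%) and none of the 31. The smallest adjusted p were those of Cyp46a1 (-0.36 ± 0.10, 0.0586), Srebf1 (0.24 ± 0.068, 0.0671) and Nr1h2 (0.26 ± 0.08, 0.0892). The 18 synthesis differences were all positive, with a median of 0.42 and 0.83 ± 0.31 for Hsd17b7. By the titles the IP and input libraries of a replicate came from 1 mouse, and with the mouse as a block 2761 genes and 14 of the 31 passed. With the block 13 genes had a larger difference in IP, among them Insig1 (0.86 ± 0.15, adjusted p = 0.000992), Hsd17b7 (0.76 ± 0.14, 0.00184), Srebf1 (0.24 ± 0.049, 0.00358) and Sqle (0.45 ± 0.10, 0.00518). The others were Nr1h2, Cyp51, Pmvk, Msmo1, Dhcr7, Sc5d, Fdft1, Mvk and Nsdhl, and Cyp46a1 differed the other way (-0.35 ± 0.06, 0.00102). Of all genes 8.36% had a larger and 9.03% a smaller difference with the block. Without both libraries of hM4Di replicate 3 the blocked model gave 2185 genes (6.43% and 7.27%), with 10 of the 31 larger in IP and 1 smaller, and a synthesis median of 0.31. The 10 oligodendrocyte markers all passed without the block too, with a median of 0.84. Leaving out both libraries of control replicate 1 or 3, or of hM4Di replicate 1, 2, 3 or 4, left 91, 208, 323, 202, 280 and 128 genes without the block, and at most 1 of the 31.

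The R6/2 mice with control cargo had lower synthesis transcripts than the control groups of the other experiments. In IP all 18 synthesis enzymes were lower than the mean of vehicle and wild type (median -0.65), 7 of them by more than 2-fold. Over the 31 genes 22 were lower and 4 higher, while 25.9% of 15398 genes were lower and 24.7% higher (edgeR, adjusted p under 0.05). The 3 groups were sequenced as separate projects, so experiment and genotype cannot be told apart. The comparison uses the same 4 R6/2 control libraries as the hM4Di comparison, so the 2 are not independent.

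The largest synthesis differences were those of Cyp51 (-1.50 ± 0.11), Msmo1 (-1.43 ± 0.12), Idi1 (-1.28 ± 0.14), Fdft1, which makes squalene (-1.12 ± 0.10), Hmgcs1 (-1.09 ± 0.15), Mvd, the mevalonate diphosphate decarboxylase (-1.07 ± 0.13), and Sqle (-1.03 ± 0.10). Hmgcs1 held 522, 566, 662 and 630.1 CPM in vehicle IP, 412, 741, 582 and 564 in wild-type IP and 253, 249, 358 and 221 in R6/2 control IP libraries. Sqle held 92.9, 88.02, 102 and 101 CPM, 70.4, 113, 90.8 and 97.8 and 44.6, 47.3, 49.7 and 40.4 in the same order. For both genes each R6/2 library lay below each library of the other 2 groups. Msmo1 held 171, 284, 218 and 211 CPM and Cyp51 121, 185, 158 and 156 in wild-type IP, and Cyp51 169, 176, 204 and 185 in vehicle IP libraries. The 2 enzymes with the smallest adjusted p under hM4Di, Hsd17b7 and Pmvk, differed less here. Hsd17b7 held 28.7, 33.2, 30.8 and 30.9 CPM in vehicle and 32.5, 46.1, 32.4 and 39.7 in wild-type IP libraries. Pmvk held 38.96, 42.3, 46.3 and 45.3 CPM in vehicle and 35.04, 42.7, 37.8 and 43.1 in wild-type IP libraries (-0.39 ± 0.066). The smallest were those of Hsd17b7 (-0.22 ± 0.087, adjusted p = 0.0493) and Lss (-0.23 ± 0.061). Without wild-type replicate 1 the counts over the 31 genes were again 22 lower and 4 higher, with a synthesis median of -0.68, and without R6/2 control replicate 3 they were 22 and 4 with -0.67. Against vehicle alone 17 of 18 were called lower, Hsd17b7 not, with a median of -0.55, and against wild type alone 18 of 18 with a median of -0.73.

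Insig1 differed most of all 31 genes (-1.79 ± 0.15), with 149, 159, 155 and 144 CPM in vehicle, 143, 217, 155 and 171 in wild-type and 33.2, 44.7, 61.7 and 43.1 in R6/2 control IP libraries. Srebf2 was lower (-0.38 ± 0.063), with 176, 160.3, 171 and 201 CPM, 192, 225, 207 and 232 and 144, 144, 154 and 148. Stard4 was lower too (-0.74 ± 0.15). Insig1 and Srebf2 lay lower in each R6/2 control library than in any library of the other groups. Srebf1 was higher (0.36 ± 0.066), with 392, 375, 373 and 419 CPM in wild-type IP libraries, as was Insig2 (0.17 ± 0.045). Scap did not pass (-0.06 ± 0.051), with 183, 179, 166 and 172 CPM in vehicle and 187, 192, 168 and 210.0 in wild-type IP libraries. Abca1 was higher by 0.50 ± 0.051, with 477, 434, 420.0 and 486 CPM in vehicle, 502, 513, 516 and 508 in wild-type and 719, 664, 662 and 624.7 in R6/2 control IP libraries, and Abcg1 by 0.21 ± 0.068. For Abca1 each R6/2 control library lay above each library of the other groups. Cyp46a1 was lower (-0.30 ± 0.057), with 132, 115, 124 and 116 CPM in wild-type IP libraries. Apoe, at 5330.4, 5601, 6639 and 6670.1 CPM in wild-type and 5676, 6099, 6143 and 6033 in R6/2 control IP libraries, did not pass (-0.13 ± 0.073, adjusted p = 0.145), and neither did Nr1h3 or Soat1. Nr1h2 did not pass either, with 27.6, 30.9, 28.7 and 30.8 CPM in vehicle and 41.2, 35.7, 31.8 and 44.96 in wild-type IP libraries.

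The 2 control groups without R6/2 differed less in these genes. Wild type against vehicle gave 3 genes higher (Srebf1 0.28 ± 0.077, Srebf2 0.27 ± 0.072 and Nr1h2 0.38 ± 0.091) and 4 lower (Idi1 -0.54 ± 0.15, Insig2 -0.16 ± 0.053, Apoe -0.28 ± 0.084 and Soat1 -0.24 ± 0.064), with 10.8% and 11.9% of all genes in those directions. The synthesis median was 0.01. Omitting vehicle replicate 3 or wild-type replicate 4 left 1 gene higher in each case and 1 and 2 lower, omitting wild-type replicate 1 gave 5 higher and 2 lower, omitting wild-type replicate 3 gave 5 higher, and omitting vehicle replicate 1 gave 2 lower. The first 2 omissions left 1816 and 2322 of 3497 genes. Oligodendrocyte markers were higher in wild type for 5 of 10 genes (median 0.48), among them Mag (0.89 ± 0.18) and Opalin (0.88 ± 0.16), as were 6 of 9 microglia markers (median 0.77), and 3 of 9 medium spiny neuron markers were lower. Of the astrocyte markers Gja1 (-0.63 ± 0.10) and Acsbg1 (-0.28 ± 0.087) were lower and Gfap (0.53 ± 0.17) higher, and the others were not called.

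Cell type markers differed strongly between the R6/2 and the other controls. In IP all 10 oligodendrocyte markers were lower (median -1.35), with sums of 6342 to 9440.4 CPM in vehicle, 8575 to 12567 in wild-type and 2950.4 to 4138 in R6/2 control libraries. All 7 oligodendrocyte precursor markers, 8 of 9 microglia markers and 6 of 8 endothelial markers were lower too. Of 9 medium spiny neuron markers 7 were lower and 1 higher. Of 12 astrocyte markers 6 were lower (median -0.34), among them Gfap (-1.87 ± 0.17, named after its value was seen). Their sums were 27129 to 34950.0, 24669 to 34585 and 21126 to 24233 CPM. The part of these differences in the synthesis result was not tested. Of the 11 fatty acid synthesis genes 10 were lower (median -0.43), among them Acly (-0.60 ± 0.056), Scd2 (-0.58 ± 0.07), Scd1 (-0.89 ± 0.11) and Acss2 (-0.94 ± 0.13). Of the 22 genes of uptake, transport and processing 5 were lower and 3 higher, with Apod lowest (-2.27 ± 0.25). Of all genes 25.9% were lower and 24.7% higher.

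**Figure D5:**
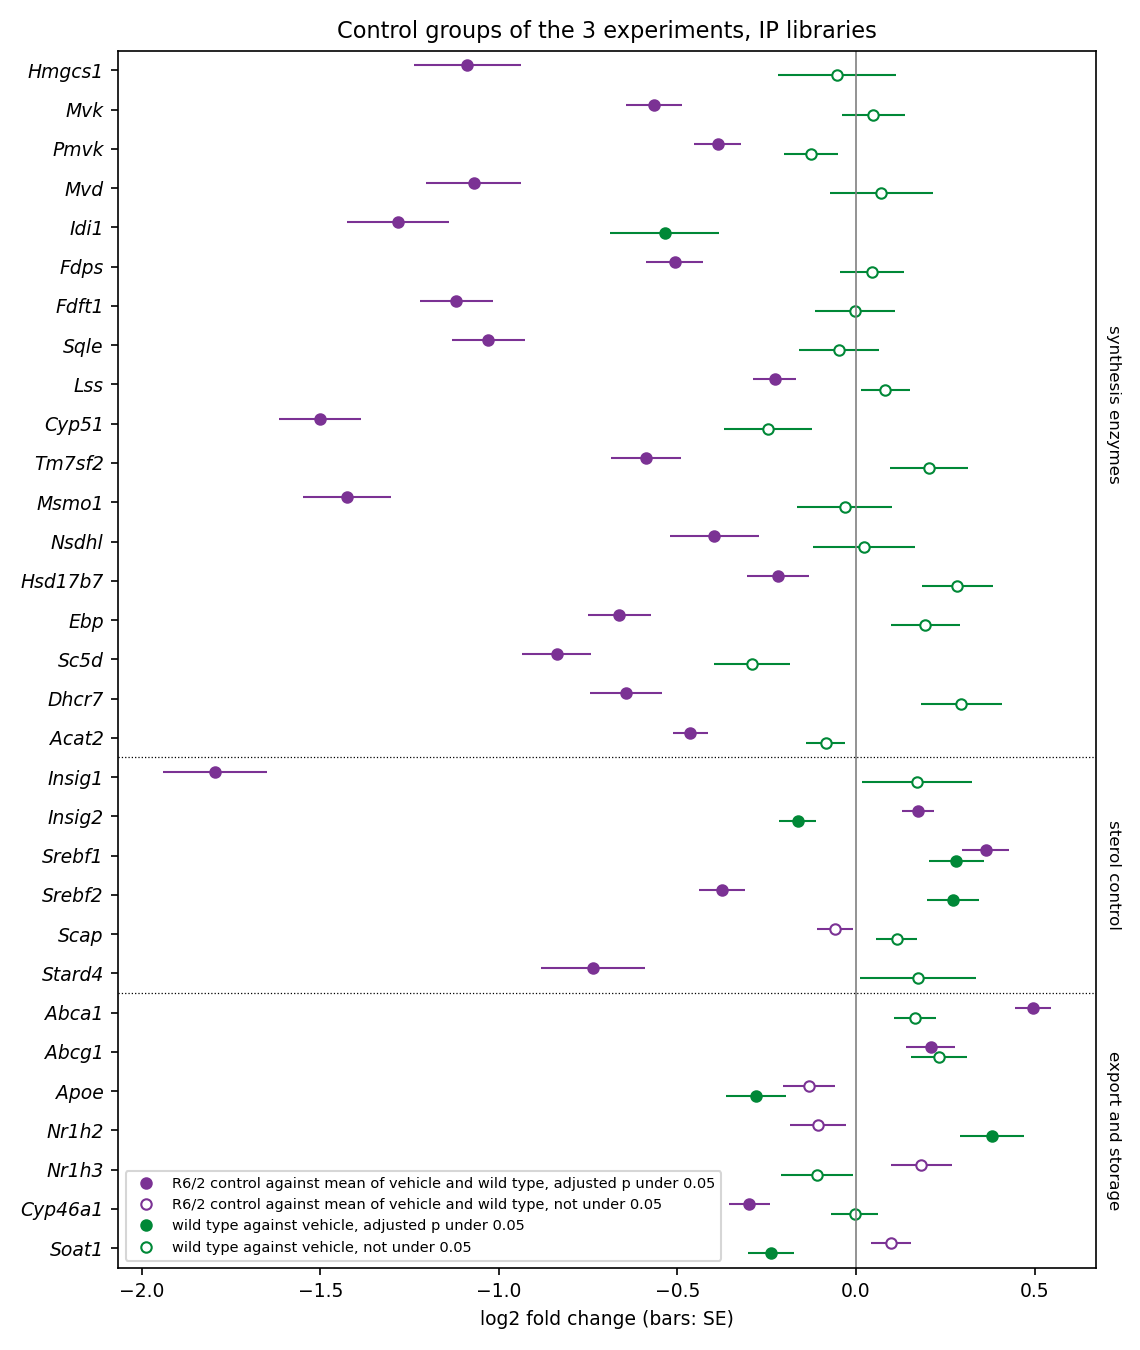
Log2 differences between control groups in IP libraries for the 31 genes, R6/2 control cargo against the mean of vehicle and wild type, and wild type against vehicle, with bars of 1 standard error from edgeR and filled points where the adjusted p was under 0.05. All 18 synthesis enzymes lie to the left of 0 in the first comparison (median -0.65) and scatter about 0 in the second (median 0.01), while Abca1 lies to the right.

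In input libraries the R6/2 difference was uneven over the pathway. Of the 18 enzymes 11 were lower, 2 higher and 5 not called (median -0.46), and of the 31 genes 17 were lower and 8 higher, while 29.7% of 15751 genes were lower and 30.2% higher. Msmo1 (-1.13 ± 0.063), Cyp51 (-0.96 ± 0.084) and Hmgcs1 (-0.96 ± 0.12) were among the lower ones. Hmgcs1 held 161, 281, 275 and 251 CPM in wild-type and 106, 106, 129 and 107 in R6/2 control input libraries, and wild-type replicate 1 lay well below its group. Lss (0.30 ± 0.075) and Tm7sf2 (0.42 ± 0.084) were higher, but not against wild type alone, where 13 enzymes were lower and none higher. Dhcr7, the last enzyme of a branch of the pathway, had -0.07 ± 0.069, and 0.23 against vehicle alone, where it passed. Insig1 was lower (-1.32 ± 0.10), with 61.02, 95.1, 78.8 and 74.99 CPM in wild-type input, and so was Srebf2 (-0.54 ± 0.056), with 143, 168, 154 and 159. Sqle held 30.6, 52.5, 48.6 and 47.3 CPM in wild-type input (-0.63 ± 0.11). Abca1 was higher by 0.86 ± 0.065, with 178, 156, 140.0 and 140.4 CPM in wild-type input, between vehicle and R6/2. Apoe was lower (-0.45 ± 0.054), with 1273, 1132, 1164 and 1217, and so was Cyp46a1 (-0.68 ± 0.05), with 167, 141, 149 and 143. For both genes wild type again lay between vehicle and R6/2. Between wild type and vehicle 9 of the 31 were higher and 5 lower in input (23.9% and 22.5% of all genes), with Srebf2 (0.66 ± 0.063), Stard4 (0.75 ± 0.13) and Abca1 (0.68 ± 0.078) among the higher ones. Omitting vehicle replicate 1 or 4, or wild-type replicate 1, 2 or 3, left 3, 3, 3, 2 and 3 lower. Without wild-type replicate 1 the R6/2 difference in input gave 18 of the 31 lower and 8 higher. Oligodendrocyte markers in R6/2 control input were lower for 7 of 10 genes (median -0.34), microglia markers for 9 of 9 (median -1.06), medium spiny neuron markers for 8 of 9 (median -1.21) and astrocyte markers for 10 of 12 (median -0.29). These are set against the mean of vehicle and wild type. The astrocyte sum was 3821 ± 183 CPM in R6/2 control, 3734 ± 177 in vehicle and 6493 ± 682 in wild-type input. So the R6/2 sum lay near that of vehicle and below that of wild type. Between wild type and vehicle in input 5 of 10 oligodendrocyte and 9 of 9 medium spiny neuron markers were lower in wild type (medians -0.17 and -0.67). Of the astrocyte markers Kcnj10 (1.28 ± 0.092), Slc1a2 (1.23 ± 0.11) and Fgfr3 (0.17 ± 0.057) were higher in wild type. Gja1 (-0.21 ± 0.065) and Acsbg1 (-0.14 ± 0.044) were lower, and the others were not called. These astrocyte genes were named after their values were seen. The part of these cells in the input results was not tested.

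The ratio of IP to input also differed in the R6/2 controls. Against the mean of vehicle and wild type it was lower for 11 of the 31 genes and higher for 3, where 10.3% of 16318 genes were lower and 4.58% higher. The 9 synthesis enzymes with a lower ratio were Tm7sf2 (-1.05 ± 0.13), Mvk (-0.68 ± 0.11), Mvd (-0.66 ± 0.20), Dhcr7 (-0.61 ± 0.13), Idi1 (-0.59 ± 0.20), Cyp51 (-0.57 ± 0.14), Lss (-0.56 ± 0.10), Sc5d (-0.40 ± 0.13) and Pmvk (-0.29 ± 0.092). Abca1 (-0.40 ± 0.087) and Nr1h2 (-0.29 ± 0.093) were lower as well. Apoe (0.28 ± 0.09), Soat1 (0.27 ± 0.071) and Cyp46a1 (0.35 ± 0.073) were higher, and no sterol control gene passed. The largest difference was that of Tm7sf2, which held 12.5, 12.02, 13.7 and 11.8 CPM in vehicle IP against 5.52, 5.71, 5.57 and 5.77 in input, but 8.66, 8.49, 9.95 and 7.95 in R6/2 control IP against 8.35, 9.34, 9.59 and 8.44 in input. So the fractions were apart in vehicle and overlapped in R6/2 control libraries.

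With the mouse as a block, 4159 genes instead of 2427 passed, and 19 of the 31 were lower and 3 higher (16.2% and 9.24% of all genes). Without both libraries of wild-type replicate 1, and without the block, 14 were lower and 3 higher (11.3% and 7.10%). The 19 were 16 synthesis enzymes, among them Sqle (-0.44 ± 0.062, adjusted p = 0.000125), and Insig1 (-0.53 ± 0.093, 0.000614), Abca1 and Nr1h2. The lower calls fell to 7 with relative log expression or upper-quartile scaling and to 6 against wild type alone. They fell to 7 without both libraries of vehicle replicate 4, wild-type replicate 4 or R6/2 control replicate 2 or 4, and to 6 without R6/2 control replicate 1. Without R6/2 control replicate 3 only 1 gene was higher. Over all genes 1461 were left without R6/2 control replicate 1 and 1524 without replicate 4. Oligodendrocyte markers had lower ratios for 10 of 10 genes (median -0.97) and their precursors for 7 of 7. The part of these cells was not tested.

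MPTP gave small differences that did not pass the test. In IP edgeR called none of the 31 genes and none of 15069 genes (0.0%). At an unadjusted p under 0.05 there were 1692 genes, 11 of them among the 31, all lower. DESeq2 called 302 genes, with 5 of the 31 lower: Mvd, Msmo1, Mvk, Insig1 and Soat1. The 18 synthesis differences were negative for 17 genes, with a median of -0.16 where the median of all genes was 0.0056. On the scaling of this comparison 7 of the 31 genes were lower in each MPTP library than in any vehicle library and none was higher (4.67% and 1.98% of all genes).

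Mvd had the smallest p, with 27.8, 33.2, 36.2 and 33.9 CPM in vehicle IP and 23.2, 20.4, 20.7 and 19.3 in MPTP IP libraries, a difference of -0.64 ± 0.088 (adjusted p = 0.0852). Msmo1 had 214, 227, 239.5 and 221 CPM against 197, 175, 171 and 173 (-0.32 ± 0.06, adjusted p = 0.0936). Insig1 had 149, 159, 155 and 144 CPM against 141, 108, 107 and 102 (-0.40 ± 0.093, adjusted p = 0.156). In these 3 genes each MPTP library lay below each vehicle library, and MPTP replicate 1 was the nearest to the controls. Soat1 had 157, 146, 148 and 153 CPM against 130.1, 125, 128 and 134 (-0.21 ± 0.043, adjusted p = 0.117) and Abca1 477, 434, 420.0 and 486 against 402, 406, 352 and 401 (-0.21 ± 0.068, adjusted p = 0.288), both without overlap. Srebf1 was at 369.7, 337, 284 and 292 CPM against 281, 275, 273 and 305, with overlapping groups (-0.17 ± 0.083). Hmgcs1 was at 652, 509, 507 and 463 CPM in MPTP IP libraries, Sqle at 97.6, 83.2, 75.3 and 72.6 and Srebf2 at 182, 166, 149 and 153, all overlapping vehicle. Apoe was at 6377, 7064, 7179.8 and 7504 CPM and Cyp46a1 at 106, 135, 158 and 126, overlapping vehicle too.

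Of the genes that rose with hM4Di in R6/2 mice, Hsd17b7 was at 28.6, 26.04, 27.4 and 23.6 CPM in MPTP IP libraries (-0.22 ± 0.07) and Pmvk at 41.4, 39.2, 37.6 and 37.4 (-0.14 ± 0.065). Cyp51 was at 181, 148, 149 and 146 (-0.22 ± 0.084), with replicate 1 again the highest. Scap was at 172, 164, 166 and 170.2 CPM (-0.05 ± 0.045) and Nr1h2 at 34.4, 29.4, 29.8 and 32.6 (0.11 ± 0.066). None of these 5 passed.

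Without MPTP replicate 1 all 18 synthesis differences were negative, with a median of -0.24, and 3 of the 31 and 14 genes in all were called. Without vehicle replicate 2 these were 1 and 65, and without MPTP replicate 3 none and 1. A fit over all 16 libraries of the experiment called 5 of the 31 and 289 genes. The fatty acid synthesis list had 11 of 11 negative differences (median -0.19, none called), led by Fads2 (-0.20 ± 0.047, adjusted p = 0.156). Astrocyte markers were lower in 11 of 12 (median -0.22, none called), with sums of 27129 to 34950.0 CPM in vehicle and 25417 to 29364 in MPTP IP libraries. Slc7a10 (-0.41 ± 0.073), Gpr37l1, Acsbg1, Gja1, Slc1a3, Aldh1l1 and Fgfr3 lay lower in each MPTP library than in any vehicle library. This held on the scaling of the comparison, where 4.67% of all genes did so. Slc1a2, Kcnj10, Gfap, Gjb6 and Aqp4 overlapped. Oligodendrocyte markers had positive differences for 9 of 10 (median 0.23) and microglia markers for 8 of 9 (median 0.26, with 0.56 ± 0.13 for Tmem119). Oligodendrocyte precursor markers had a median of -0.34, and Pdgfra (-0.54 ± 0.10), C1ql1 (-0.52 ± 0.13), Cspg4 (-0.48 ± 0.12) and Neu4 (-0.34 ± 0.082) lay lower in each MPTP library than in any vehicle library on the scaling of the comparison. Of the same precursor list, Gpr17 (-0.21 ± 0.089) overlapped, and Olig2 (0.13 ± 0.11) and Sox10 (0.13 ± 0.13) had positive differences. None of these markers was called, and those named here were chosen after their values were seen. The part of these cells in the synthesis values was not tested.

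In input none of the 31 and none of 15601 genes passed (0.0%; 1289 genes at an unadjusted p under 0.05, 65 by DESeq2), and the synthesis median was 0.01. The smallest p were those of Fdft1, with 58.4, 64.5, 64.9 and 59.2 CPM against 64.4, 66.99, 66.6 and 70.1 (0.13 ± 0.049), and Tm7sf2, with 5.52, 5.71, 5.57 and 5.77 against 6.13, 6.80, 6.83 and 6.04 (0.20 ± 0.084). Both had an adjusted p over 0.5 in edgeR. Next by class were Srebf2 (-0.11 ± 0.048) and Insig2, the latter with 44.7, 45.6, 39.1 and 42.5 against 36.6, 40.1, 40.3 and 42.9 (-0.09 ± 0.061). In export Nr1h3, the liver X receptor alpha, had 3.91, 3.08, 3.32 and 3.77 against 3.53, 2.73, 3.19 and 3.35 (-0.13 ± 0.13) and Apoe a difference of 0.08 ± 0.07. Leaving out MPTP input replicate 1 gave 2 calls over all genes. Oligodendrocyte markers had a median of -0.02 in this input comparison, none of them called. MPTP input libraries held 66.9, 61.00, 64.3 and 57.8 CPM of Insig1, 207, 197, 184 and 181 of Hmgcs1 and 41.1, 38.5, 37.3 and 37.1 of Sqle. Srebf2 was at 91.4, 96.2, 85.6 and 85.9 CPM and Abca1 at 100.4, 87.7, 87.7 and 84.8. Apoe was at 1304, 1455, 1679.7 and 1621 CPM and Cyp46a1 at 175, 199, 199 and 195. All 7 genes overlapped the vehicle input values. The interaction of MPTP and fraction called no gene of 15862 (0.0%; 1266 at an unadjusted p under 0.05, 50 by DESeq2). The 18 synthesis terms were all negative (median -0.23, and -0.24 for 18 of 18 without both libraries of MPTP replicate 1), with -0.56 ± 0.13 for Mvd (adjusted p = 0.341) and -0.28 ± 0.073 for Msmo1. In input Mvd was at 11.6, 12.5, 15.9 and 13.4 CPM with vehicle and 12.4, 13.1, 11.9 and 12.4 with MPTP, and Msmo1 at 81.00, 84.3, 93.1 and 88.3 and 81.8, 83.7, 82.2 and 82.9. Insig1 had an interaction term of -0.35 ± 0.11, Stard4 -0.20 ± 0.15, Soat1 -0.24 ± 0.06 and Nr1h2 0.14 ± 0.077.

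SAPAP3 knockout gave no call among the 31 genes in either fraction. In IP 4 of 15198 genes passed (0.0263%) and in input 1 of 15591 (0.00641%, edgeR). At an unadjusted p under 0.05 there were 399 genes in IP, of the 31 only Lss, and 869 in input, of the 31 only Stard4 and Srebf2. DESeq2 called 8 genes in each fraction. In IP 2 genes were left in edgeR when any of wild-type replicates 1 to 3 or knockout replicates 2 to 4 was omitted, and none on omission of wild-type replicate 4. In input none was left without knockout replicate 2, 3 or 4. Synthesis differences were positive for 16 of 18 in IP (median 0.14) and 18 of 18 in input (median 0.12), but wild-type replicate 1 was the lowest of its group for 16 and 14 of the 18. Without it the medians were 0.068 in IP and 0.078 in input, positive for 13 and 15. Wild-type replicate 2 was the highest of its group for 16 in IP and 11 in input, and without it the medians were 0.23 in IP and 0.17 in input, positive for 17 and 17. Wild-type input replicate 1 also had the highest summed level of medium spiny neuron markers, 7303 CPM against 4064 to 4867 in the other 3. Its sums were the lowest of the group for astrocyte markers (5536 CPM against 6490 to 7064) and pan-neuronal markers (3532 against 5491 to 5777).

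Lss held 46.6, 60.8, 52.3 and 53.8 CPM in wild-type and 58.8, 63.3, 64.8 and 58.7 in knockout IP libraries (0.20 ± 0.078, adjusted p = 0.999), with overlap through wild-type replicate 2. Idi1 held 6.44, 9.29, 7.32 and 7.04 CPM against 7.56, 9.86, 8.97 and 10.03 (0.27 ± 0.13) and Stard4 12.9, 17.7, 14.1 and 16.03 against 19.6, 20.5, 16.1 and 15.4 (0.23 ± 0.12), both overlapping. Soat1 held 114, 132, 133 and 133 CPM against 118, 152, 160.1 and 144 (0.16 ± 0.095), with wild-type replicate 1 apart from the other wild-type libraries. Stard4 held 11.3, 16.8, 16.6 and 14.9 CPM in wild-type and 20.2, 20.1, 18.5 and 18.2 in knockout input (0.37 ± 0.11, adjusted p = 0.735), without overlap. Srebf2 held 143, 168, 154 and 159 CPM against 193, 192, 159 and 163 in input (0.19 ± 0.079) and 192, 225, 207 and 232 against 268, 283, 195 and 216 in IP (0.16 ± 0.12). Knockout replicates 1 and 2 were above all wild-type libraries in both fractions and replicates 3 and 4 within their range. In knockout IP libraries Insig1 was at 146, 204, 177 and 147 CPM, Hmgcs1 at 605, 738, 689 and 632 and Sqle at 102, 113, 109 and 105. Abca1 was at 507, 595, 572 and 463 CPM, Apoe at 5181, 5912, 7296 and 6262 and Cyp46a1 at 121, 97.4, 108 and 109. All 6 overlapped the wild-type values. In knockout input Insig1 was at 79.8, 77.6, 86.7 and 81.2 CPM, Sqle at 59.9, 50.9, 55.03 and 54.2 (0.30 ± 0.14) and Abca1 at 143, 156, 132 and 126. Apoe was at 1074, 1078, 1206 and 1224 CPM and Cyp46a1 at 144, 130.1, 140.0 and 144, and all 5 overlapped wild type. Fdft1 held 53.9, 73.2, 69.03 and 66.8 CPM against 72.2, 67.6, 82.9 and 81.5 (0.22 ± 0.10). Nr1h3 held 4.17, 3.65, 2.61 and 2.98 against 2.40, 3.06, 2.97 and 2.61 (-0.27 ± 0.17) and Abcg1 167, 155, 151 and 156 against 153, 147, 147 and 146 (-0.08 ± 0.05). Hmgcs1, at 298, 282, 303 and 293 CPM, was just above the wild-type values in each library (0.29 ± 0.15, adjusted p = 0.735). The interaction of knockout and fraction called no gene of 16059 (0.0%; 203 at an unadjusted p under 0.05, 1 by DESeq2), and the synthesis median was -0.03. The smallest p in each class were those of Lss (0.19 ± 0.14) and Acat2 (-0.10 ± 0.11), Srebf1 (0.17 ± 0.13) and Stard4 (-0.14 ± 0.18), and Abca1 (0.20 ± 0.13) and Nr1h3 (0.32 ± 0.22).

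The genes that rose with hM4Di in R6/2 mice overlapped between knockout and wild type. In knockout IP libraries Hsd17b7 was at 37.9, 43.3, 38.7 and 36.1 CPM (0.04 ± 0.11), Pmvk at 36.1, 40.9, 42.1 and 40.8 (0.01 ± 0.082) and Cyp51 at 159, 174, 197 and 178 (0.19 ± 0.11). Msmo1 was at 203, 258, 263 and 237 CPM (0.12 ± 0.14) and Srebf1 at 384, 402, 400.5 and 404 (0.02 ± 0.065). Scap was at 182, 198, 182 and 184 CPM (-0.03 ± 0.076) and Nr1h2 at 40.8, 37.4, 34.6 and 37.7 (-0.04 ± 0.11). None of these passed. Medium spiny neuron markers had negative differences for 9 of 9 genes in IP and in input (medians -0.30 and -0.32), none of them called. Oligodendrocyte markers had medians of -0.03 in IP and -0.04 in input, and microglia markers had positive differences for 9 of 9 in IP (median 0.57) and negative ones for 9 of 9 in input (median -0.24), none of them called.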

How the data were processed

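RNA of 48 libraries, IP and input, was sequenced from stranded, ribosome-depleted libraries per the labels' protocols. The authors deposited raw read counts per gene and FPKM values for 24060 genes. Reads were aligned with STAR and counted with HTSeq on mm10, per the submitters' processing notes, and whether counting used strand is not given in the sources used here. The deposited FPKM values equalled each count divided by the column total and by 1 length per gene, as checked on 14119 genes, whose implied length varied over libraries by a coefficient of variation under 0.001. Groups follow the labels, and the mice named in the titles differ between the replicates of a group.

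Counts were tested with edgeR 4.0.16 in R 4.3.3 by the quasi-likelihood test, after filterByExpr (minimum count 10) and TMM scaling, with Benjamini-Hochberg adjustment over all genes and a threshold of 0.05. The fit was run on simulated counts with 2-fold changes, the same spread for all genes and no outlying library. It is no check of smaller changes or of data with an outlying library. CPM values were scaled by TMM over all 48 libraries at once. Perturbations were fitted on the 8 libraries of 1 fraction, fractions and interactions on the 16 of an experiment, control groups on the 12 libraries of those groups in 1 fraction, and their IP to input ratio on 24. The alternatives were other scalings and filters, DESeq2 1.42.0, limma 3.58.1 (voom, and log2(FPKM + 1)), a block by replicate or animal, a threshold of 0.1, all 16 libraries of an experiment, and omission of each replicate. The IP and input libraries of a replicate carry 1 animal name in the titles, except MPTP replicate 2, where the names differ. Wild-type replicate 3 has a title that may join 2 mice. Deviations of the IP and input libraries of a replicate correlated with r of 0.0502 to 0.327 (MPTP), 0.200 to 0.469 (SAPAP3) and 0.339 to 0.597 (R6/2), and the pairing by animal rests on the titles. The reported tests had no block, and the animal block took both libraries of MPTP replicate 2 as 1 animal. Replicate pairs of 1 group differed by more than counting noise (chi-square per degree of freedom 4.12 to 95.7 over 72 pairs).

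The genes and lists were chosen with earlier results of these data known. Values in every library were given for genes called in a perturbation, for the 2 genes of each role with the smallest p in a perturbation or interaction, and for Apoe, Abca1, Insig1, Srebf2, Hmgcs1, Sqle and Cyp46a1. Up to 4 genes of each other pathway list were named by smallest p in a comparison, and of each marker list the 4 with the smallest p for IP against input. Promoter sequences came from RefSeq. Protein sequences were not used here.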

Additional observations from a re-analysis of the deposited data

Results flagged for a closer look

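In 28 of 372 groups of 4 libraries (7.53%), the highest or lowest library lay apart from the other 3 by more of the group's range than Dixon's critical share for 4 values, where chance gives about 1 in 20. Of these, 9 were in hM4Di IP replicate 3, where the level was the highest of the group: Hmgcs1 at 593 CPM, Mvk at 58.0, Idi1 at 12.3, Sqle at 103, Lss at 64.2, Msmo1 at 269.7, Hsd17b7 at 102, Sc5d at 115 and Insig1 at 185 CPM. The input library of the same replicate stood apart for Mvk at 17.99 CPM and Acat2 at 22.2 CPM. MPTP IP replicate 1 was the highest of its group for Mvk at 23.7 CPM, Cyp51 at 181, Msmo1 at 197, Sc5d at 129 and Insig1 at 141 CPM. The share of 1 in 20 holds for independent, normally distributed values. Genes that stand apart in the same library are not independent, so the 7.53% is not to be read against it.

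The other 12 libraries that stood apart did so for 1 gene each. These were Hmgcs1 in R6/2 control input replicate 3 (129 CPM), Mvk in vehicle input replicate 1 (15.7 CPM), Nsdhl in knockout IP replicate 1 (33.8 CPM) and Ebp in vehicle input replicate 3 (17.4 CPM). They were also Srebf2 in R6/2 control input replicate 4 (95.9 CPM), Scap in knockout IP replicate 2 (198 CPM), Abca1 in MPTP IP replicate 3 (352 CPM) and Abcg1 in knockout input replicate 1 (153 CPM). The last were Apoe in hM4Di IP replicate 4 (4771 CPM), Nr1h3 in wild-type IP replicate 4 (6.17 CPM), Cyp46a1 in vehicle IP replicate 4 (115 CPM) and Soat1 in wild-type IP replicate 1 (114 CPM).

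The IP to input ratio differed by an interaction test between R6/2 control mice and the mean of vehicle and wild type for 14 genes (edgeR, adjusted p under 0.05). On the log2 scale the ratio was higher in R6/2 control mice for Cyp46a1 (0.35), Soat1 (0.27) and Apoe (0.28). It was lower for Tm7sf2 (-1.05), Mvk (-0.68), Mvd (-0.66), Dhcr7 (-0.61), Idi1 (-0.59), Cyp51 (-0.57), Lss (-0.56), Sc5d (-0.40), Abca1 (-0.40), Nr1h2 (-0.29) and Pmvk (-0.29). Experiment and genotype cannot be told apart here.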

How the results depend on the processing

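Of 1288 alternative values for 68 main results, 1162 kept their direction, their side of the threshold and, for counts, stayed within 1.5 times, and for single genes 9526 alternative values did so, 170 newly passed, 223 no longer passed, 56 moved and 7 reversed. The vehicle-alone and wild-type-alone references and the blocked interaction without hM4Di replicate 3 were chosen after seeing the data. The causes below were not tested.

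DESeq2, a fit over all 16 libraries and a threshold of 0.1 gave 302, 289 and 50 genes for MPTP in IP, with 5, 5 and 2 of the 31 lower. For hM4Di in IP they gave 3474, 3636 and 3728 genes, with 16, 17 and 18 of the 31 higher. DESeq2 gave 65 genes for MPTP input, 8 for SAPAP3 IP, 8 for SAPAP3 input, 53 for hM4Di input, 50 for the MPTP interaction with 1 of the 31 lower, and 1 for the SAPAP3 interaction. A threshold of 0.1 gave 2 genes for SAPAP3 input and 5 for hM4Di input, and the 16-library fit 3 for SAPAP3 input. Without the filter there was 1 gene for MPTP input and 5 for hM4Di input. For the R6/2 interaction a threshold of 0.1 gave 1065 genes and DESeq2 1159, each with 2 of the 31 higher and 1 lower, relative log expression and upper-quartile scaling each 1 lower, and FPKM values 1 higher.

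On log2(FPKM + 1) the synthesis median of IP against input was 0.69 (MPTP), 0.70 (SAPAP3) and 0.47 (R6/2), that of R6/2 input -0.29, and 5 of the 31 were lower in IP in the MPTP experiment (4 with upper-quartile scaling; 1 in the R6/2 experiment without the filter). Wild type against vehicle in IP gave 7, 6, 7 and 6 higher at 0.1, with upper-quartile scaling, with DESeq2 and with FPKM, and 2 lower with FPKM. Against wild type alone 5 were higher in R6/2 input and 6 had a lower ratio, and against vehicle alone 1 had a higher ratio. The lower ratios numbered 7 with relative log expression or upper-quartile scaling, without the filter and with a mean CPM of at least 1. The reversed values were Ebp on FPKM (-0.18 and -0.044 for IP against input in the MPTP and R6/2 experiments), Abcg1 (-0.11 with upper-quartile scaling in the MPTP experiment, and -0.20, -0.045 and -0.066 on FPKM), and Dhcr7 in R6/2 input against vehicle alone (0.23).

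Leaving out 1 replicate at a time gave 0 to 65 genes and 0 to 3 of the 31 lower for MPTP IP, 0 to 2 genes for MPTP input, 0 to 3 for SAPAP3 IP and 0 to 1 for SAPAP3 input. For hM4Di IP it gave 892 to 2130 genes, 2 to 10 of the 31 higher, 0 to 1 lower and a synthesis median of 0.31 to 0.64. The R6/2 interaction had 91 to 433 genes with 0 to 1 of the 31 higher and 0 to 1 lower, and the synthesis median of IP against input in R6/2 was 0.72 to 0.94. Wild type against vehicle gave 1816 to 4000 genes in IP, with 1 to 5 of the 31 higher and 1 to 5 lower, and 2 to 5 lower in input. The ratio gave 1461 to 3019 genes, with 1 to 3 higher and 6 to 14 lower.

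With the replicate number as a block, there was 1 gene for MPTP input, 2 for SAPAP3 IP and 6 for hM4Di input. For hM4Di IP 13 of the 31 passed, 12 of them higher, and 8 were among the 10 called without it, with 1601 of 15159 genes called against 2227. Same-numbered libraries of the 2 conditions share only a number: their deviations correlated with r between -0.292 and 0.342, and 0, 3 and 3 of 8 libraries in the MPTP, SAPAP3 and R6/2 experiments correlated best with their own number. With the animal as a replicate block, the R6/2 interaction gave 2761 genes with 13 of the 31 higher and 1 lower (2185, 10 and 1 without hM4Di replicate 3), and the ratio 4159 genes with 19 lower. The block changed no call among the 31 genes for MPTP or SAPAP3. Genes near the lowest level (Idi1, 54 reads in a library) carry the most counting error.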
